A study of Mus musculus with 12 samples.

Results

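The genes described here encode 8 mouse enzymes that need zinc and lie outside heme synthesis: Car1, Car2, Sod1, Ada, Adh5, Lta4h, Glo1 and Ide. They were chosen by symbol, as enzymes known to hold zinc, and with earlier results of these data known. Each had its own row among the 55367 gene symbols of the deposited tables. The RNA came from cultured G1E-ER4, a Gata1-deficient mouse red cell precursor line with an estrogen-activated GATA1 fusion protein, so all results come from 1 clonal line. All 4 groups, with 3 libraries each, received 100 nM β-estradiol to start red cell maturation, in medium with erythropoietin and Kit ligand, and were harvested 24 h later. One group also received DTPA, a chelator meant to deplete zinc, at 50 µM. Another received the iron chelator DFO at 50 µM, and another SA at 0.2 mM to block ALAD, an early enzyme of heme synthesis. Control cells received none of the 3 agents. For the ALAD group the protocol text names DFO while the titles and treatment tags name SA, and the titles were followed. DTPA binds metals other than zinc too, and the libraries measured RNA, not zinc, protein or enzyme activity.

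Zinc sits in the active site of most of these enzymes, where it activates a water molecule or polarises the substrate. Carbonic anhydrases turn carbon dioxide and water into bicarbonate and a proton, the reaction by which red cells carry carbon dioxide, and Car1 and Car2 encode the cytosolic forms known from red cells. SOD1 uses copper for catalysis and holds zinc as a structural metal, and removes superoxide. ADH5 clears formaldehyde and S-nitrosoglutathione, GLO1 clears methylglyoxal, ADA deaminates adenosine, LTA4H makes the lipid mediator leukotriene B4 and trims peptides, and IDE degrades insulin and other short peptides.

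Values are TPM, transcript abundances per exon length that the authors scaled to the same total in every library. From the spacing of low values, between 19864703 and 24339697 reads per library were recovered. This estimate covers only the genes with an exon length, 96.2% of symbols. All 11 erythroid markers were at 1 TPM or more in every library. Their summed level was between 19443 and 28237 TPM with DTPA, between 18500.4 and 19087 with DFO, between 16857 and 19173 with SA and between 21797 and 23577 in control. Gata1, on this list, averaged 1058 TPM with DTPA, 2230 with DFO, 2126 with SA and 2501 in control. The line is Gata1-deficient and carries a GATA1 fusion, so these reads can come from the fusion and do not mark cell identity. Mt1, a metallothionein gene that responds to zinc, averaged 122 ± 3.52 TPM with DTPA and 1872 ± 71.4 TPM in control (SD, n = 3 each). Tfrc, the transferrin receptor gene that responds to iron, averaged 1245 ± 48.8 TPM with DFO and 883 ± 24.1 TPM in control. Of 12 megakaryocyte markers 3 were at 0 in all 12 libraries, among them Ppbp and Gp1bb, and the list summed to between 257 and 268 TPM with DTPA, between 128 and 129.5 with DFO, between 129 and 135 with SA and between 161 and 171 in control. Tubb1 held most of that sum. Against control, 4 of the 5 tested megakaryocyte markers were called higher and 0 lower with DTPA (limma adjusted p under 0.05). Over all 11917 tested genes 23.5% were called higher and 42.1% lower. Among the 4 were Itgb3 (16.95 TPM with DTPA and 2.15 TPM in control, 7.88-fold) and Gp1ba (18.5 TPM with DTPA and 4.30 TPM in control, 4.30-fold). The 11 erythroid markers held 1 called higher and 8 called lower with DTPA. Of 16 mast and myeloid markers 11 were at 0 throughout, and the list summed to at most 3.54 TPM with DTPA, 0.931 with DFO, 1.03 with SA and 0.502 in control. Of 12 lymphoid markers 6 were at 0 throughout, and the list summed to at most 2.04 TPM with DTPA, 0.777 with DFO, 0.922 with SA and 0.757 in control. The part of such other-lineage transcripts in the results below was not tested. In bulk RNA, fewer cells of a type and less RNA per cell cannot be told apart.

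On the mouse build GRCm38 (mm10) all 8 are protein-coding genes, and TPM counts reads over their exons. Car1 lies on chromosome 3 from 14766216 to 14808368 on the minus strand and Car2 lies close by from 14886273 to 14900770 on the plus strand. Their relatives Car13 (14641727 to 14663002) and Car3 (14863512 to 14872523) lie in the same stretch. Adh5 is on chromosome 3 from 138443093 to 138455499, Sod1 on chromosome 16 from 90220754 to 90226329 and Ada on chromosome 2 from 163726584 to 163750239. Lta4h is on chromosome 10 from 93453411 to 93484875, Glo1 on chromosome 17 from 30584936 to 30626871 and Ide on chromosome 19 from 37268743 to 37337852. Exons of Glo1 alone among the 8 overlapped exons of other annotated genes, by at most 3.45% of its exon length.

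Promoter windows from 250 bases before to 50 bases after the start, from RefSeq on GRCm38.p6, were matched by symbol for 6 of the 8 genes, with Car1 and Car2 not among them. Adh5 and Lta4h are shown because they are the 2 genes with a window that differed between DTPA and control, in opposite directions. Sod1 is shown as 1 of the 2 genes called lower with SA in TPM as deposited. The other, Ide, fell more with SA (log2 fold change -0.38, against -0.24 for Sod1) and is not shown. The windows are chr3:138442843-138443142 for Adh5, chr10:93453146-93453445 for Lta4h and chr16:90220512-90220811 for Sod1, all on the plus strand and written 5′ to 3′. Capitals, read on the opposite strand, mark a metal response element core (TGCACNC or TGCGCNC), the motif read by the zinc sensor MTF1, in Adh5 and Lta4h, and an antioxidant response element core (TGACNNNGC), the motif read by NRF2, in Sod1.
Adh5: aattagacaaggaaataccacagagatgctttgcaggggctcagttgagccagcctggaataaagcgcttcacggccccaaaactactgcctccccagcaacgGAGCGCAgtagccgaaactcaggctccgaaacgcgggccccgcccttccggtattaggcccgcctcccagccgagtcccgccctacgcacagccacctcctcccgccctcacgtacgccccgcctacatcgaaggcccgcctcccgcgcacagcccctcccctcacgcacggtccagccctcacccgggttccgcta
Lta4h: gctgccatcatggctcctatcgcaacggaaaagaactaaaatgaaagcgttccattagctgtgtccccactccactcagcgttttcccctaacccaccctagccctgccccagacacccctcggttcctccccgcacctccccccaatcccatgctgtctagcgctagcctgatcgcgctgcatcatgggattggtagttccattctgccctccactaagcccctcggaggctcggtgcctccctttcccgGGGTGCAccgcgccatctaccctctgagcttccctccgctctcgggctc
Sod1: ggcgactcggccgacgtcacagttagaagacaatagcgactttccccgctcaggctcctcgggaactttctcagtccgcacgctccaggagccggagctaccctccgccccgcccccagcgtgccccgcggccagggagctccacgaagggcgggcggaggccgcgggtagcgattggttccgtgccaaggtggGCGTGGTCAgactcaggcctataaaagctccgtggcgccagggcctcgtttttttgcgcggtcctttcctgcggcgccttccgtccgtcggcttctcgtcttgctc
The GATA motif was searched too, as AGATAA with its variant AGATAG, besides the forms TGATAA with its variant TGATAG. All motifs were searched on both strands, and no marked motif overlapped another. Ada held 1 metal response element core and no other match, and Glo1, Ide and a separate Adh5 window at an upstream start held none of the 3 motifs. Among 32851 promoter windows of that length, 25.7% held a metal response element core, 12.4% an antioxidant response element core and 29.8% a GATA motif. The matches describe letters in these windows and no binding was measured.

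The largest change among the 8 genes was in Car1 with DTPA. Car1 had 534, 544 and 562 TPM in DTPA libraries, 93.9, 96.9 and 87.7 in DFO libraries, 94.6, 94.7 and 94.2 in SA libraries and 66.6, 72.1 and 66.4 in control libraries. Every treated library lay above every control library, and the DTPA libraries lay far above all others. Mean TPM was 7.99-fold higher with DTPA than in control (log2 fold change 2.98, SE 0.040, limma adjusted p = 1.36e-13), the 76th largest absolute fold change of 11917 genes tested. Car1 was also higher than control with DFO (1.36-fold, log2 fold change 0.44, adjusted p = 0.00011) and with SA (1.38-fold, 0.46, adjusted p = 1.18e-05). DFO and SA did not differ from each other beyond their spread (log2 difference -0.03, 95% interval -0.11 to 0.06, adjusted p = 0.717), while DTPA exceeded DFO by 2.54 and SA by 2.52 in log2 (adjusted p = 5.19e-13 and 4.54e-13).

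Car2, the most abundant of the 8 transcripts in every library, moved the other way with DTPA. It had 3120.3, 3017 and 3155 TPM in DTPA libraries, 4913, 4928 and 4909 in DFO libraries, 4968, 4767 and 4821 in SA libraries and 4981, 4944 and 5098 in control libraries. The DTPA libraries all lay below the other 9. Its mean fell to 3097 ± 71.7 TPM with DTPA, against 5008 ± 80.3 TPM in control (SD, n = 3 each). Its log2 fold change was -0.69 (SE 0.022, limma adjusted p = 1.13e-10). With DFO (log2 fold change -0.03, 95% interval -0.07 to 0.02) and SA (-0.05, -0.09 to 0.002) Car2 did not pass (adjusted p = 0.504 and 0.167). With SA it was called lower relative to the median gene (-0.10, adjusted p = 0.0164), under trimmed-mean scaling (0.0244), without globin genes (0.0380) and by voom (0.00745). The direct difference was -0.67 between DTPA and DFO and -0.65 between DTPA and SA (adjusted p = 1.74e-10 and 2.04e-10).

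With these opposite changes the make-up of the pair shifted while Car2 stayed the more abundant. Car1 made up 15.0% ± 0.345 of the summed Car1 and Car2 level with DTPA, 1.85% ± 0.0886 with DFO, 1.91% ± 0.0397 with SA and 1.35% ± 0.0796 in control (SD, n = 3 each). Car2 exceeded Car1 5.67-fold with DTPA and 73.4-fold in control. The sum of both was 3644 ± 78.5 TPM with DTPA, 5009.9 ± 14.3 with DFO, 4947 ± 104 with SA and 5076 ± 78.0 in control. Car1 and Car2 together held between 99.4% and 99.6% of the mean summed level of all 13 carbonic anhydrase genes looked at, in each group.

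Only 3 other carbonic anhydrases were abundant enough to test. Car13, a cytosolic form whose gene neighbours Car1, fell with DTPA to 7.03, 9.30 and 8.39 TPM, against 22.5, 20.9 and 26.3 TPM in control (log2 fold change -1.39, limma adjusted p = 1.92e-07). Car3, a cytosolic form best known from muscle and fat, was low but higher under the chelator, at 1.72, 1.94 and 2.08 TPM in DTPA libraries against 0.577, 0.871 and 0.799 TPM in control (log2 fold change 0.74, adjusted p = 0.000968). Car5b, a mitochondrial form, had 4.16, 4.67 and 4.17 TPM with DTPA and 2.08, 1.92 and 1.40 TPM in control (log2 fold change 0.94, adjusted p = 8.65e-05). The 4 neighbours on chromosome 3 thus split into Car1 and Car3 higher and Car2 and Car13 lower with DTPA. None of Car13, Car3 and Car5b passed with DFO or SA (adjusted p between 0.342 and 0.907), and the other 8 were below 1 TPM in every library.

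**Figure D1:**
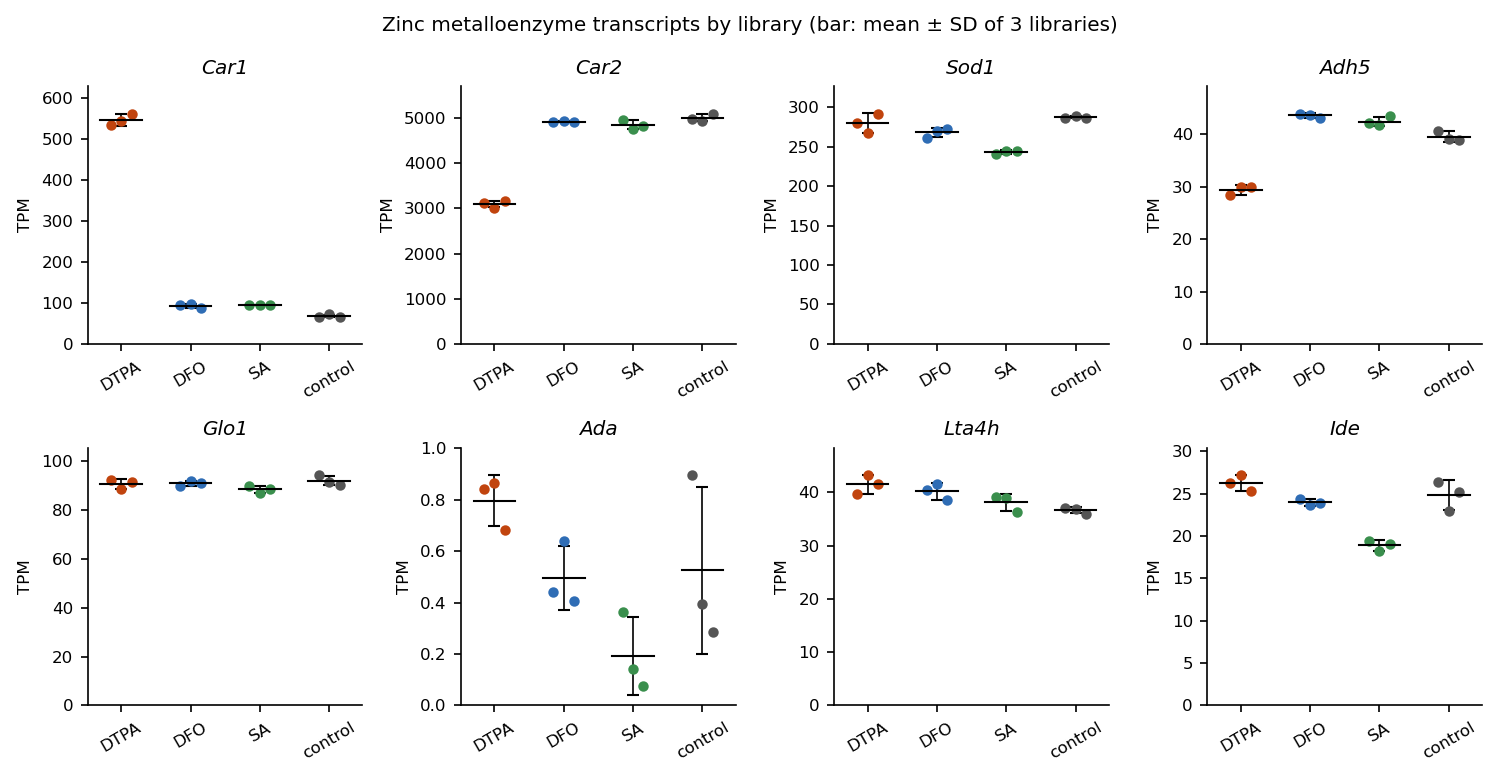
TPM of the 8 genes in each library, with DTPA, DFO, SA and control from left to right in each panel. Points are libraries and bars the mean ± SD of 3. Car1 is at 534 to 562 TPM with DTPA and at 66.4 to 72.1 TPM in control, while Car2 and Adh5 are lowest with DTPA and Sod1 and Ide lowest with SA.

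Sod1, which encodes copper-zinc superoxide dismutase, was lower with SA and was not called with DTPA. It had 280.4, 267 and 292 TPM in DTPA libraries, 261, 270.2 and 272 in DFO libraries, 240.4, 244 and 244 in SA libraries and 287, 289 and 286 in control libraries. The SA libraries lay below all other libraries, and those of DTPA overlapped control. The log2 fold change was -0.24 with SA (SE 0.029, limma adjusted p = 0.000141) and -0.04 with DTPA (95% interval -0.10 to 0.02, adjusted p = 0.261). The value with DTPA was -0.07 without DTPA replicate 3 (adjusted p = 0.0362) and turned to 0.09 relative to the median gene (adjusted p = 0.0275). With DFO it was -0.10, with adjusted p = 0.0477, a call that was lost with no filter on low genes (adjusted p = 0.0886) and on leaving out any 1 library other than DTPA replicates 2 and 3 (adjusted p between 0.0627 and 0.151). SA was lower than DFO as well, with a DFO minus SA difference of 0.14 (adjusted p = 0.00794), and lower than DTPA (DTPA minus SA 0.20, adjusted p = 5.95e-05).

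Genes that work beside SOD1 changed in some comparisons where Sod1 was not called. Cat, which encodes catalase and clears the hydrogen peroxide that SOD1 makes, averaged 630.3 TPM with DTPA, 884 with DFO, 741 with SA and 1024 in control, and was lower in all 3 comparisons (log2 fold change -0.70, -0.21 and -0.47, limma adjusted p = 1.76e-11, 6.74e-05 and 4.22e-08). Gpx1, a glutathione peroxidase gene, was lower in all 3 too (-0.79, -0.07 and -0.12, adjusted p = 6.55e-12, 0.0331 and 0.000477). The DFO call of Gpx1 was lost without DFO replicate 1 or 2, SA replicate 3 or control replicate 1 or 3 (adjusted p between 0.0511 and 0.0995). That call was also lost with no filter on low genes (adjusted p = 0.172) and from the 6 libraries compared alone (0.0909). Sod2, the mitochondrial manganese enzyme, was lower with SA (-0.20, adjusted p = 0.00764) and was not called with DTPA (-0.03) or DFO (0.01). Ccs, the chaperone that loads copper into SOD1, had a log2 fold change of -0.15 with DTPA (adjusted p = 0.0266), which was -0.02 relative to the median gene (adjusted p = 0.770) and did not pass without DTPA replicate 1 or 3 or control replicate 1 (0.102, 0.110 and 0.0803).

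Adh5, the formaldehyde and S-nitrosoglutathione enzyme, fell with DTPA. It had 28.4, 30.03 and 29.9 TPM in DTPA libraries, 44.0, 43.7 and 43.2 in DFO libraries, 42.2, 41.8 and 43.4 in SA libraries and 40.7, 39.1 and 39.0 in control libraries. The DTPA libraries lay below the rest, and those of DFO and SA lay above control by small margins. The log2 fold change was -0.42 with DTPA (SE 0.031, limma adjusted p = 2.27e-07). The rises with DFO (0.14, adjusted p = 0.0172) and SA (0.10, adjusted p = 0.0424) lost their call when scaled by median of ratios (adjusted p = 0.0613 and 0.259). The call with DFO also went without DFO replicate 1 or 2 or control replicate 2 or 3 (adjusted p between 0.0535 and 0.0647), and that with SA without any single DFO or SA library or control replicate 2 or 3 (between 0.0537 and 0.139). Adh5 was lower with DTPA than with DFO by 0.55 and than with SA by 0.51 in log2 (adjusted p = 1.86e-08 and 3.38e-08).

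The partners of ADH5 in formaldehyde and aldehyde clearance went separate ways. Esd, whose product hydrolyses the S-formylglutathione that ADH5 makes, had 137, 131 and 135 TPM with DTPA, 99.3, 103 and 102 with DFO, 86.0, 84.7 and 83.5 with SA and 152, 142 and 148 in control. It fell with DFO (log2 fold change -0.54, limma adjusted p = 6.21e-06) and with SA (-0.79, adjusted p = 3.94e-08), and lay lower with SA than with DFO (DFO minus SA 0.26, adjusted p = 0.000185). With DTPA its change was -0.13 (adjusted p = 0.00157), which vanished under median-of-ratios scaling (-0.0023, adjusted p = 0.955). Aldh2, a mitochondrial aldehyde dehydrogenase gene, rose 2.50-fold with DTPA to 108, 112 and 110.1 TPM, against 44.3, 44.3 and 43.8 TPM in control (log2 fold change 1.30, adjusted p = 4.01e-12), and 1.22-fold with DFO (0.28, adjusted p = 0.000144).

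Glo1, the methylglyoxal enzyme, was called in no comparison of TPM as deposited. It had 92.5, 88.6 and 91.4 TPM in DTPA libraries, 89.7, 92.1 and 90.9 in DFO libraries, 89.9, 87.0 and 88.4 in SA libraries and 94.3, 91.6 and 90.4 in control libraries. All 6 log2 differences lay between -0.06 and 0.04. The 95% intervals against control were -0.08 to 0.03 for DTPA, -0.07 to 0.04 for DFO and -0.11 to -0.003 for SA (limma adjusted p = 0.497, 0.693 and 0.127). This depends on the scaling. Relative to the median gene, Glo1 was higher than control by 0.11 with DTPA (adjusted p = 0.00419) and lower with SA (-0.12, adjusted p = 0.0121), and the fall with SA was also called under trimmed-mean scaling (0.0177), without globin genes (0.0391) and by voom (0.0264). Hagh, another zinc enzyme and the next step after GLO1, fell with DTPA to 168, 160.1 and 164 TPM, against 332, 331 and 344 TPM in control (log2 fold change -1.03, adjusted p = 5e-12). With SA Hagh averaged 370.1 TPM (0.14, adjusted p = 0.000978, and 0.0557 under median-of-ratios scaling).

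Ada, the adenosine deaminase gene, was near the limit of detection. It had 0.842, 0.864 and 0.684 TPM in DTPA libraries, 0.442, 0.639 and 0.406 in DFO libraries, 0.364, 0.140 and 0.0764 in SA libraries and 0.895, 0.394 and 0.286 in control libraries, which correspond to between 1 and 14 reads a library. The control libraries overlapped those of each treatment, and Ada did not reach the filter of 1 TPM in 3 libraries. Tested with no filter, it differed from control in no treatment (limma adjusted p = 0.221 with DTPA, 1 with DFO and 0.203 with SA), with 95% intervals of -0.07 to 0.58, -0.33 to 0.31 and -0.66 to -0.02 in log2. DTPA minus SA was 0.60 (adjusted p = 0.0069). Of the other adenosine genes, Nt5e was listed at 0 in all 12 libraries and the receptor genes Adora2a and Adora2b were at most 0.143 and 0.268 TPM. Adk, which encodes adenosine kinase, rose with DTPA to 397, 408 and 414 TPM, against 278, 276 and 274 TPM in control (log2 fold change 0.56, adjusted p = 1.44e-10). Slc29a1, a nucleoside transporter gene, averaged 15.0 TPM with DTPA, 41.95 with DFO, 52.3 with SA and 38.2 in control, lower with DTPA (-1.29, adjusted p = 5.41e-11) and higher with SA (0.44, adjusted p = 1.02e-05). Its small rise with DFO (0.13, adjusted p = 0.0433) did not pass once libraries were scaled by median of ratios (adjusted p = 0.250), or without any 1 library of DFO or control, DTPA replicate 3 or SA replicate 3 (adjusted p between 0.0524 and 0.138). Dck, which encodes deoxycytidine kinase, fell with DTPA to 14.4 TPM, against 37.0 TPM in control (-1.30, adjusted p = 2.74e-10). With DFO Adk was slightly higher (0.14, adjusted p = 0.000749) and Dck lower (-0.22, adjusted p = 0.0121, and 0.0682 from the 6 libraries compared alone). The rise of Adk with SA (0.09, adjusted p = 0.00415) was lost when libraries were rescaled to the median gene.

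Lta4h and Ide are the 2 peptide-cutting enzymes of the set. Lta4h had 39.7, 43.2 and 41.5 TPM in DTPA libraries, 40.4, 41.5 and 38.5 in DFO libraries, 39.2, 38.9 and 36.2 in SA libraries and 37.0, 36.8 and 36.0 in control libraries. DTPA and DFO libraries lay above control and SA libraries overlapped it. The log2 fold change was 0.17 with DTPA (SE 0.042, limma adjusted p = 0.00307), 0.13 with DFO (95% interval 0.04 to 0.22, adjusted p = 0.0737) and 0.05 with SA (-0.04 to 0.15, adjusted p = 0.392). Between DTPA and DFO the difference was 0.05 (95% interval -0.05 to 0.14), and it was called relative to the median gene (0.23, adjusted p = 0.00038), under trimmed-mean scaling (0.22, adjusted p = 0.000543) and by voom (0.15, adjusted p = 0.00168). Alox5, which makes the substrate of LTA4H, was at most 0.312 TPM in any library, and Ltc4s and Pla2g4a, of the same lipid pathway, were listed at 0 in all 12.

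Ide was lower with SA and was not called with DTPA or DFO in TPM as deposited. It had 26.3, 27.2 and 25.3 TPM in DTPA libraries, 24.4, 23.6 and 23.9 in DFO libraries, 19.4, 18.2 and 19.1 in SA libraries and 26.4, 23.0 and 25.2 in control libraries. The SA libraries lay below all other 9, and those of DTPA and DFO overlapped control. The log2 fold change with SA was -0.38 (SE 0.050, limma adjusted p = 0.000282), with DTPA 0.08 (95% interval -0.03 to 0.19, adjusted p = 0.194) and with DFO -0.05 (-0.16 to 0.06, adjusted p = 0.603). With DTPA Ide was called higher relative to the median gene (0.21, adjusted p = 0.00168), under trimmed-mean scaling (0.20, adjusted p = 0.00181) and by voom (0.16, adjusted p = 0.00196). Directly compared, DTPA exceeded SA by 0.45 and DFO exceeded SA by 0.33 (adjusted p = 6.89e-06 and 0.00132). Nrd1, a relative of Ide that encodes the peptidase nardilysin, showed another pattern: it averaged 110.0 TPM with DTPA, 163 with DFO, 156 with SA and 168 in control, lower with DTPA (-0.61, adjusted p = 4.94e-09) and with SA (-0.10, adjusted p = 0.0275, and between 0.0574 and 0.102 without SA replicate 1 or 2 or control replicate 1 or 3). With DFO Nrd1 was not called (-0.05, adjusted p = 0.369). Both other scalings called it lower there (median-of-ratios -0.10, adjusted p = 0.0231, trimmed-mean -0.095, adjusted p = 0.0314). Igf1r, a receptor gene of insulin-like growth factor, rose with DTPA to 5.34, 5.25 and 5.04 TPM, against 0.312, 0.313 and 0.469 TPM in control (2.19, adjusted p = 1.17e-08), while Insr was listed at 0.

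**Figure D2:**
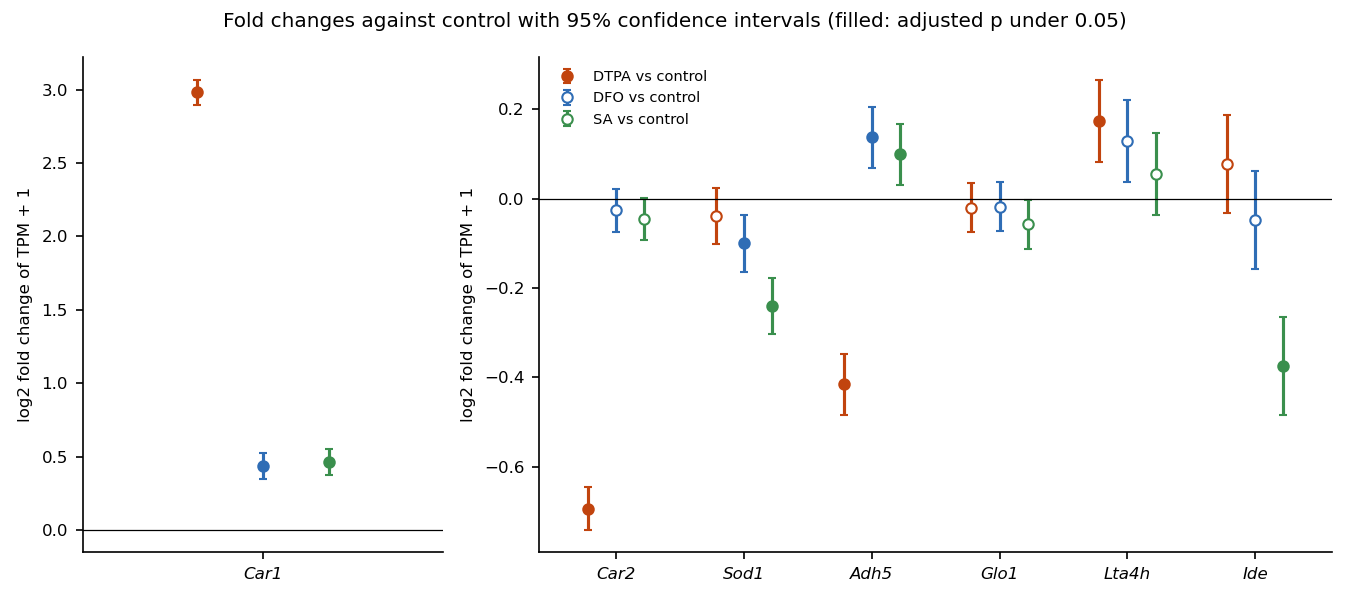
Log2 fold change of TPM + 1 against control for DTPA, DFO and SA, with 95% confidence intervals from limma, for Car1 on its own axis at the left and the other 6 tested genes at the right. Filled points passed an adjusted p of 0.05. Car1 stands at 2.98 with DTPA, Car2 and Adh5 are lowest in the DTPA points, and Sod1 and Ide are lowest in the SA points.

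Counted together, 7 of the 8 genes passed the filter on low values. With DTPA 2 of the 7 were higher than control (Car1 and Lta4h) and 2 lower (Car2 and Adh5), where 23.5% of the 11917 tested genes were higher and 42.1% lower, 65.5% in all. The same 4 had libraries that did not overlap control, against 69.6% of all tested genes. Relative to the median gene (median-of-ratios or trimmed-mean scaling) the split with DTPA was 5 higher and 2 lower, and by voom 3 and 2. With DFO 2 were higher (Car1 and Adh5) and 1 lower (Sod1), against 8.39% of all genes higher and 2.28% lower, 10.7% in all, and 5 did not overlap control, against 30.2%. With SA 2 were higher (Car1 and Adh5) and 2 lower (Sod1 and Ide), against 15.4% higher and 6.75% lower, 22.2% in all, and 5 did not overlap, against 38.5%. The split with SA was 1 higher and 4 lower under both other scalings, without globin genes and by voom. The median log2 fold change of the 7 was -0.02 with DTPA, -0.02 with DFO and -0.05 with SA, beside -0.11, 0.05 and 0.05 over all tested genes. With so few genes these shares describe the list and do not set it apart from other genes.

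Between treatments the genes fell into different orders. DTPA differed from DFO in 4 of the 7 (Car1 and Ide higher, Car2 and Adh5 lower), against 65.9% of all genes (19.6% higher and 46.4% lower), and the call for Ide (0.13, adjusted p = 0.0434) was lost without DTPA replicate 1 or 2, any of the DFO libraries, SA replicate 3 or control replicate 3 (adjusted p between 0.0543 and 0.141). DTPA differed from SA in 6 (Car1, Sod1, Lta4h and Ide higher, Car2 and Adh5 lower), against 67.1% (20.1% higher and 47% lower). The Lta4h call there (0.12, adjusted p = 0.0245) was lost without DTPA replicate 2 or 3 or SA replicate 3 (adjusted p between 0.0543 and 0.105) and from the 6 libraries compared alone (0.0525). Sod1 was not called between DTPA and DFO (0.06, adjusted p = 0.0781) but was without DTPA replicate 2 (0.09, adjusted p = 0.00606) and relative to the median gene (0.25, adjusted p = 4.48e-05). DFO differed from SA in 2 (Sod1 and Ide higher with DFO), against 13.5% (7.22% higher and 6.3% lower). In level per exon length Car1 ranked next after Car2 with DTPA and after Car2, Sod1 and Glo1 in control. Such an order depends on the annotated exon lengths, 1248 bases for Car1, 3970 for Sod1 and 12101 for Glo1. In reads, Car1 (4742 to 5634) lay below Sod1 (7924 to 9307) and Glo1 (7969 to 8883) with DTPA. With DFO the Car1 libraries overlapped those of Glo1, at 87.7 to 96.9 and 89.7 to 92.1 TPM. In TPM, Adh5 lay above Lta4h with DFO and in control and below it with DTPA, with no overlap of libraries in each of these.

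Genes with the nearest profile over the 12 libraries were found by the root mean square difference of log2(TPM + 1) centred on control, among 8052 named genes. Nearest to Car1 were Mylk3, a myosin light chain kinase gene (127 TPM with DTPA, 18.03 with DFO, 20.5 with SA and 14.8 in control, difference 0.10), and the lysosomal gene Laptm5 (difference 0.20), and no gene lay within 0.1. Nearest to Car2 were the splicing factor gene Phf5a and the deubiquitinase gene Usp4 (0.030 and 0.032), with 450 genes within 0.1. For Ide only 6 lay within 0.1, led by Plcb3 and Skiv2l (0.072 and 0.077), for Sod1 101, led by Taldo1 and Top1 (0.043 and 0.051), and for Adh5 707, led by Slf2 and Rtf2 (0.033 and 0.035). Lta4h had 712, led by Snrk and Sucla2 (0.037 and 0.044), and Glo1 1044, led by Becn1 and Ppp6r1 (0.026 and 0.031). A nearly flat profile such as that of Glo1 has many neighbours by this measure. Flatness alone did not set the counts, as Adh5, lower with DTPA, had 707 and Sod1 had 101.

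A wider list of 75 other zinc-dependent enzymes, without heme synthesis and histone deacetylases, was set beside the 8. Of its 49 tested genes 10 were higher and 29 lower with DTPA, against 23.5% of all tested genes higher and 42.1% lower, with a median log2 fold change of -0.20 beside -0.11 over all genes. Relative to the median gene, with median-of-ratios scaling (median of all genes 0.002 in log2), the split was 14 higher and 22 lower. Besides Car13 and Hagh, Mipep, a mitochondrial peptidase gene, fell to 3.91 TPM with DTPA, against 9.60 TPM in control (-1.11, limma adjusted p = 3.77e-08). Ece1, an endothelin-converting enzyme gene, rose to 4.59, 5.48 and 5.10 TPM in DTPA libraries, against 1.07, 1.09 and 0.783 TPM in control (1.61, adjusted p = 1.33e-07). Ampd2, an AMP deaminase gene, rose to 42.4 TPM, against 22.6 TPM in control (0.88), and Erap1, an antigen-trimming aminopeptidase gene, to 5.83 TPM, against 3.10 TPM in control (0.73).

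With DFO 4 of the 49 were higher and 2 lower (12.2%, against 10.7% of all tested genes), and with SA 14 were higher and 5 lower (38.8%, against 22.2%). Relative to the median gene the splits were 1 higher and 5 lower with DFO and 6 higher and 12 lower with SA, so the direction of this list depends on the scaling in both. Lap3, a leucine aminopeptidase gene, had the largest called change with DFO (0.28, limma adjusted p = 0.00345), and Ampd3, an AMP deaminase gene, the largest fall (-0.13, adjusted p = 0.0145). Also with DFO, the peptidase genes Cndp2 (0.13, adjusted p = 0.0183) and Pitrm1 (0.11, adjusted p = 0.00883) were higher, calls that median-of-ratios scaling ended (adjusted p = 0.123 and 0.0754), and Psmd14, a deubiquitinase of the proteasome lid, was lower (-0.10, adjusted p = 0.0221). Single libraries ended the DFO calls of Cndp2 (DFO replicate 2 or 3, control replicate 2 or 3, adjusted p up to 0.0701), Psmd14 (DFO replicate 2 or 3, control replicate 1 or 3, up to 0.0797) and Ampd3 (DFO replicate 3 or control replicate 3, up to 0.0521). With SA, Fntb, a farnesyltransferase subunit gene, rose to 46.5 TPM, against 37.9 TPM in control (0.29, adjusted p = 8.37e-05), and Pts, of tetrahydrobiopterin synthesis, rose to 11.3 TPM, against 9.31 TPM in control (0.25, adjusted p = 0.00657). Brcc3, a deubiquitinase gene, was higher with SA as well (0.22, adjusted p = 0.0157, and between 0.0550 and 0.0601 without SA replicate 2 or 3 or control replicate 2), and Adat1, a tRNA adenosine deaminase gene chosen after its values were seen, had the largest rise of the list with SA, to 3.18, 2.39 and 2.61 TPM, against 1.41, 1.19 and 1.63 TPM in control (0.63, adjusted p = 0.00723). Dclre1b, a nuclease gene of telomere care, was lower (-0.26, adjusted p = 0.00985). Mtr, methionine synthase, fell to 48.6 TPM with SA, against 56.0 TPM in control (-0.20, adjusted p = 0.00152), and Psmd14 fell to 93.9 TPM, against 107.9 TPM in control (-0.20, adjusted p = 0.000158).

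Of 31 listed pathway partners of the 8 enzymes 20 were tested, and with DTPA 4 were higher and 14 lower, with DFO 4 and 5, and with SA 3 and 8, where 65.5%, 10.7% and 22.2% of all tested genes were called. Relative to the median gene these became 5 and 10 with DTPA, 3 and 7 with DFO and 2 and 9 with SA. Slc4a1 encodes band 3, the membrane exchanger of the bicarbonate that carbonic anhydrase makes. It had 49.3, 43.4 and 43.8 TPM with DTPA, 472, 447 and 464 with DFO, 522, 519.6 and 520.0 with SA and 747, 681 and 725 in control. All 9 treated libraries lay below control, and the log2 fold change was -3.95 with DTPA, -0.64 with DFO and -0.46 with SA (limma adjusted p = 6.97e-14, 2.44e-05 and 3.98e-05). Rhag, a membrane channel gene of red cells, was lower with DTPA (-0.34) and SA (-0.32). With DFO Rhag was not called (-0.11, adjusted p = 0.117). Both other scalings called it lower there (median-of-ratios -0.17, adjusted p = 0.0154, trimmed-mean -0.16, adjusted p = 0.0187). Adal, a relative of Ada, was higher with DFO (0.25) and SA (0.30) and was not called with DTPA (0.02, adjusted p = 0.648, and 0.15 with adjusted p = 0.000822 under median-of-ratios scaling).

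**Figure D3:**
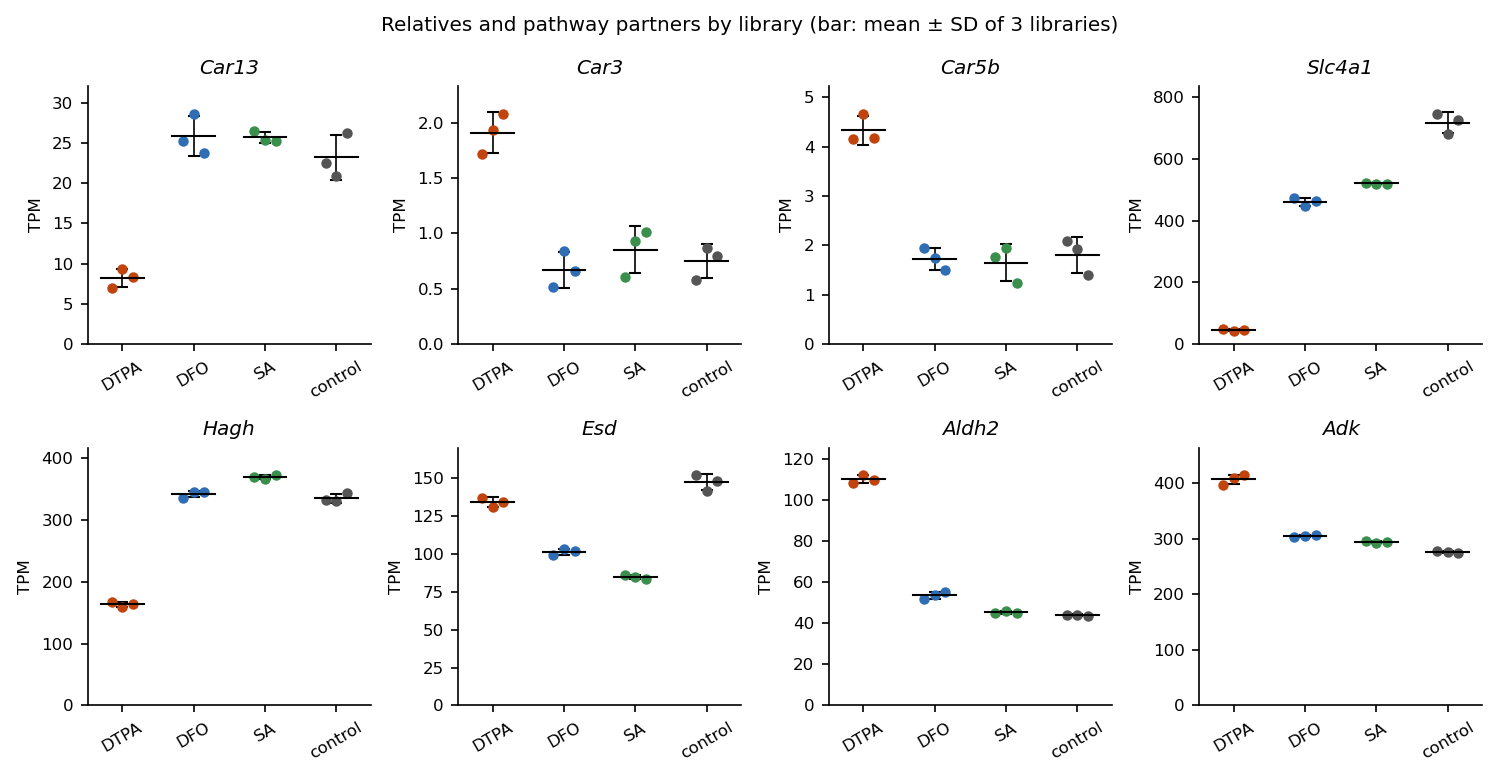
TPM by library of 3 further carbonic anhydrase genes (Car13, Car3 and Car5b) and of partners of the enzymes (Slc4a1, Hagh, Esd, Aldh2 and Adk), with points for libraries and bars for mean ± SD of 3. Hagh is at 160.1 to 168 TPM with DTPA and at 331 to 344 TPM in control, and Esd is lowest with SA.

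**Figure D4:**
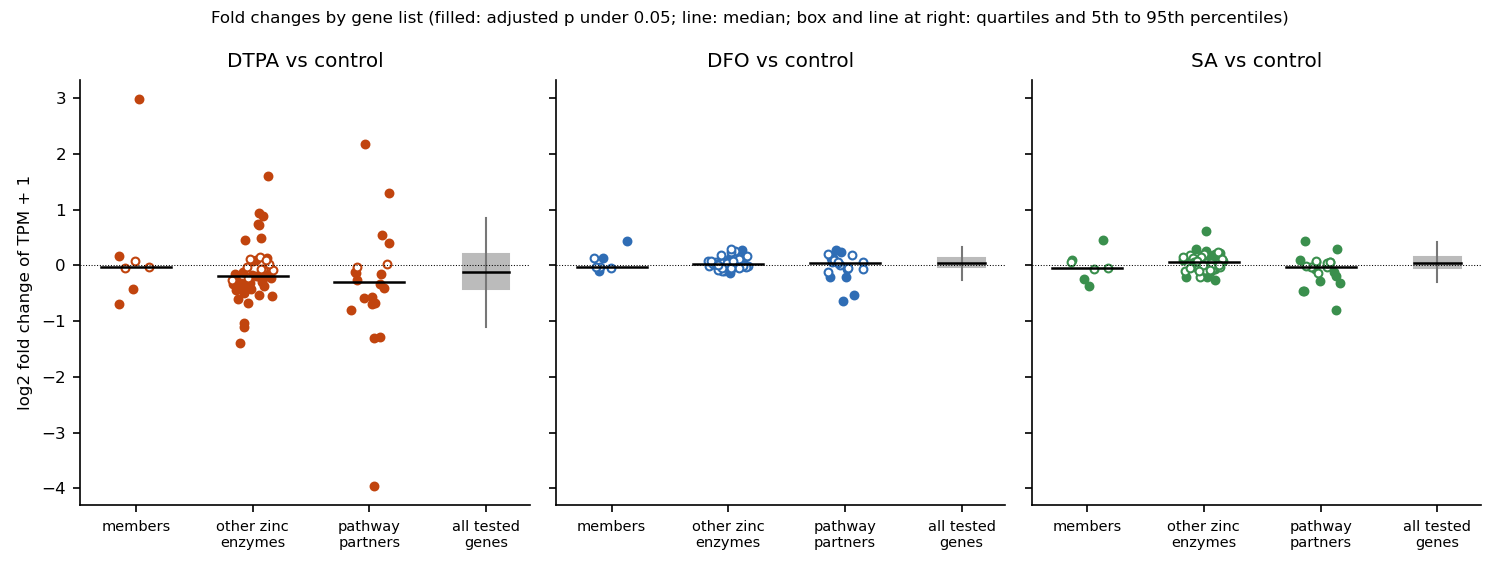
Log2 fold change of TPM + 1 against control for the 7 tested members, 49 other zinc enzymes and 20 pathway partners, 1 panel per treatment, beside the quartiles (box) and the 5th to 95th percentiles (line) of all 11917 tested genes. Filled points passed an adjusted p of 0.05 and black lines are medians. The spread is widest with DTPA, where Car1 (2.98) and Slc4a1 (-3.95) mark the ends.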

How the data were processed

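Polyadenylated RNA of 12 libraries, 3 per group, was sequenced after strand-specific library preparation, per the labels' protocols. For every library the authors deposited a table of TPM by gene. Per the submitters' processing notes the build was mm10 and the tools named are HISAT2 2.1.0, featureCounts, edgeR, Trimmomatic 0.33 and FastQC. The sources used here give neither their settings nor the annotation release or strand use. The labels call the libraries biological replicates, so p-values measure the spread between these cultures.

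Of 55487 rows, 234 carried 1 of 114 repeated symbols, and the copy with the highest mean was kept. GENCODE M21 gave positions and exon lengths (96.2% of symbols). The product of TPM and exon length took whole steps in each library, for between 98.8% and 99.0% of values up to 200 reads (within 0.1 read), which gave the reads quoted. Replicate pairs differed beyond sampling noise (chi-square over degrees of freedom 2.04 to 5.61).

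The 11917 genes reaching 1 TPM in 3 or more libraries were fitted as log2(TPM + 1) by limma 3.58.1 (R 4.3.3), using the 12 libraries together, a mean for each group and a mean-variance trend. Fold changes on this scale understate changes of low genes, and multiples are ratios of mean TPM. Adjusted p is Benjamini and Hochberg's over all tested genes, and calls used 0.05. Tables and plots used Python 3.11.15, pandas 2.3.3 and matplotlib 3.10.9. Simulated data with known changes served to test the fit. Same-numbered libraries of different groups did not deviate together (correlations between -0.04 and 0.05 over 18 pairs), so the fit has no block.

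The 8 members and the gene lists were chosen with earlier results of these data known. Named besides the 8 were Mt1 and Tfrc, up to 3 called rises and falls per list and treatment with a mean of at least 5 TPM, and the nearest profiles. Chosen after their values were seen were Car3, Car5b, Gpx1, Sod2, Ccs, Rhag, Nrd1, Adat1, Nt5e, Adora2a, Adora2b, Itgb3, Gp1ba, Tubb1, Alox5, Ltc4s, Pla2g4a and Insr. Alternatives changed the pseudocount (0.1 or 5), the filter (none, or 5 TPM), the scaling (median-of-ratios or trimmed-mean) and the threshold (0.01), removed globin genes, made the empirical Bayes step robust, fitted only the 6 libraries compared, blocked on replicate number, or omitted single libraries. Limma's voom on the recovered reads was added after the data were seen.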

Additional observations from a re-analysis of the deposited data

How the results depend on the processing

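Of 1008 values of the 7 tested genes under the alternatives, 921 kept their direction and side of the threshold, 48 lost the call, 24 gained it and 15 reversed. The changes of Car1 in all 3 comparisons with control, of Car2, Adh5 and Lta4h with DTPA and of Sod1 and Ide with SA kept direction and call under all 24 alternatives. Car1 with DTPA lay between 2.91 and 3.11.

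Scaling decided the direction of genes near 0. With DTPA against control, median-of-ratios scaling gave 7 called genes (trimmed-mean 7), with Sod1 at 0.094 (0.090) and Glo1 at 0.11 (0.11). Glo1 was also reversed without globin genes (0.0042) and by voom (0.054), as was Sod1 by voom (0.036). With DTPA against DFO, 7 were called under median-of-ratios and trimmed-mean scaling and by voom, and Glo1 (-0.0015) turned to 0.19, 0.18 and 0.095, to 0.041 without globin genes, to 0.016 without DTPA replicate 2 and to 0.0077 without DFO replicate 2. Lta4h with SA turned to -0.0020 under median-of-ratios scaling, and Car1 in DFO minus SA to 0.013 without DFO replicate 3. On leaving out each library Glo1 lay between -0.015 and 0.016 (DTPA against DFO) and Car1 between -0.058 and 0.013 (DFO against SA). The cause was not tested. Over all genes median-of-ratios scaling gave 3842 higher and 3859 lower with DTPA (2796 and 5014 as deposited), 423 and 646 with DFO (1000 and 272) and 1124 and 1624 with SA (1838 and 804).

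At a threshold of 0.01 DFO left 1 member and 3 other zinc enzymes called, and SA 10 other zinc enzymes. Leaving out each library gave between 1 and 3 members and between 3 and 6 other zinc enzymes with DFO. DFO kept 1 member without DFO replicate 1 or 2 or control replicate 2 or 3. The replicate block ended the calls of Sod1 with DFO (adjusted p = 0.0617) and Adh5 with SA (adjusted p = 0.0749) and of no other member. The numbers do not pair the samples. Adh5 with SA was lost under 15 alternatives and with DFO under 6. Ada, at between 1 and 14 reads, is limited by depth.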
